A study of Mus musculus with 2 samples.

Results

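Among the CD45+ immune cells of mouse liver, 972 cells carried the name CD4 T cell in the deposited annotation, of which 455 lay in cluster 6 and 404 in cluster 9 of the deposited clustering. The remaining CD4 T cells, which are described here, are those outside these 2 clusters. There were 113 such cells, 48 from TG and 65 from WT mice, and all 113 lay in cluster 21. They were 113 of 11929 annotated cells in all. The rule used the authors' cell type name and cluster number and no gene directly. For that name the paper lists CD3 and CD4, and the clusters were made from the genes of these same cells. The differences between cluster 21 and clusters 6 and 9 are therefore given as descriptions, without a test.

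Regulatory T cells (Tregs) are CD4 T cells that restrain other immune cells. Foxp3 is the transcription factor that defines the lineage, and most Tregs carry the high-affinity IL-2 receptor, whose alpha chain CD25 is encoded by Il2ra, and the inhibitory receptor CTLA-4. Tregs take up IL-2 but make little of it, and they act through inhibitory receptors, suppressive cytokines and the activation of TGF-β at their surface.

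TG mice are dnTGFβRII animals, which express a dominant negative human TGF-β receptor II from the mouse CD4 promoter and develop a liver disease like primary biliary cholangitis. The promoter drives the transgene in T cells. Wild type animals are called WT, and both groups were on the C57BL/6 background and 10 weeks of age per the labels. The paper's methods give a somewhat younger age for the TG and B6 mice whose liver cells were prepared. TG cells were captured in 1 library together with cells of IFN-γ ARE-Del-/- mice, and WT cells in a second library together with cells of p40-/-IL-2Rα-/- mice. The number of mice in a pool is not given in the sources used here. Because each genotype had a single library, no test could be made, and genotype and library cannot be told apart. The intervals below are 95% intervals that cover counting error only.

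Levels are unique molecular identifiers (UMIs) of a gene summed over the cells of a set, scaled to 1e+06 UMIs of that set (CPM). The cells of cluster 21 held 195251 UMIs in TG and 204754 in WT, with a median of 3677.5 and 2784 UMIs and 1748 and 1438 genes per cell. Median depth was 3118.5 and 2479 UMIs in cluster 6 and 3132 and 2317.5 in cluster 9, so the cells of cluster 21 were the deepest of the 3 sets in each library. A count of 3 UMIs, taken as the floor for a gene with no UMI, was 15.4 (TG) and 14.7 CPM (WT). The doublet caller marked 0 of the 113 cells, and 1 of them had a cell index that an annotated cell of the other library also held.

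The cells of cluster 21 carried the markers of regulatory T cells in both libraries. Foxp3 (chromosome X, 7573644 to 7595245, GRCm38) was at 922 CPM (792 to 1067) for TG and 952 CPM (823 to 1096) for WT. In cluster 6 Foxp3 had 0 UMIs in TG, which makes cluster 21 at least 53.6-fold higher against the floor of 3 UMIs, and 9 CPM in WT, a log2 ratio of 6.65 (5.77 to 7.88). In cluster 9 it was at 2.1 (TG) and 36.3 CPM (WT), with log2 ratios of 8.20 (6.28 to 14.09) and 4.69 (4.13 to 5.35). The Foxp3 levels of TG and WT cells in cluster 21 differed by less than their counting error, with a TG over WT log2 ratio of -0.05 (-0.35 to 0.25).

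The other markers were likewise highest in cluster 21. Ikzf2, which encodes the transcription factor Helios (chromosome 1, 69531214 to 69687245), was at 1255 (TG) and 825 CPM (WT) against 34.4 and 12 CPM in cluster 6 and 90.4 and 69.9 CPM in cluster 9. Ctla4 (chromosome 1, 60887000 to 60915832) was at 405 and 469 CPM against 34.4 and 16 CPM in cluster 6 and 29.4 and 61.8 CPM in cluster 9. Il2ra (chromosome 2, 11642807 to 11693193) was at 661 (TG) and 234 CPM (WT), against 11.5 and 12 CPM in cluster 6 and 37.8 and 48.4 CPM in cluster 9. For all 3 genes the lower of the cluster 21 values lay above each value of clusters 6 and 9. Tnfrsf18 (GITR) and Tnfrsf4 (OX40), receptors of the TNF receptor family that Tregs carry, were at 635 and 584 CPM in TG and at 303 and 190.5 CPM in WT, and their highest values in clusters 6 and 9 were 151 and 65.1 CPM. The cells are called Treg-like below.

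**Figure D1:**
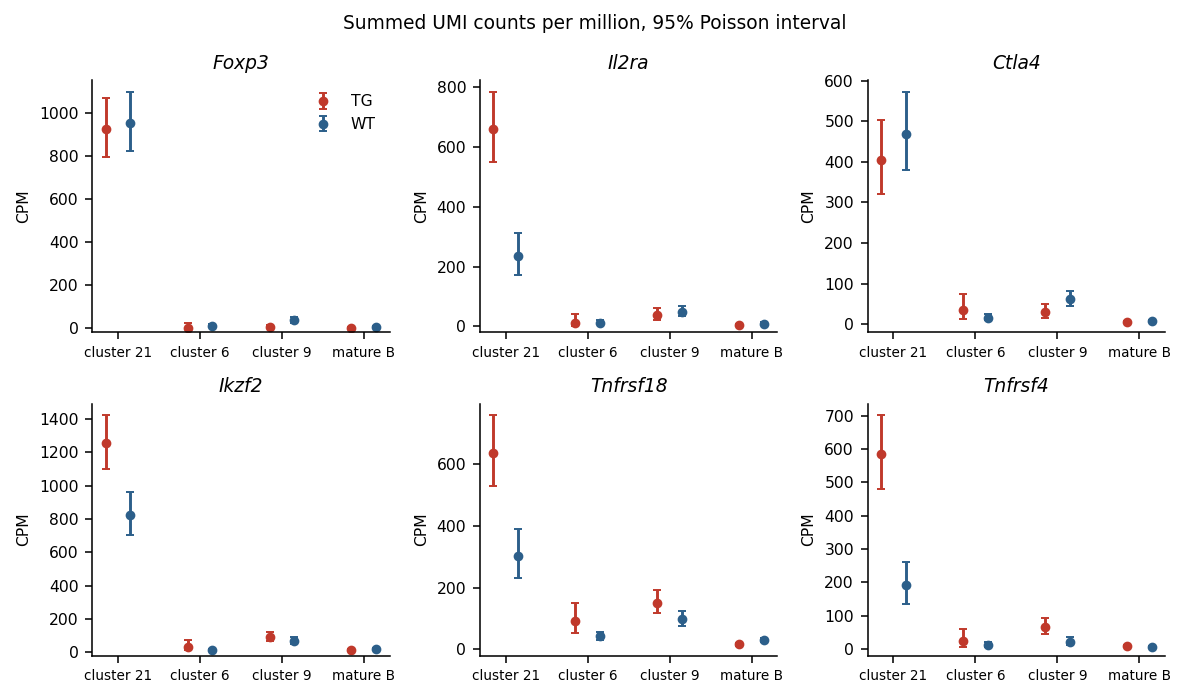
Each panel plots CPM of 1 marker gene, from UMIs summed over the cells of a set, in cluster 21, cluster 6, cluster 9 and mature B cells, with TG and WT as separate points and 95% Poisson intervals as bars. Foxp3 stands at 922 (TG) and 952 CPM (WT) in cluster 21 and at no more than 36.3 CPM in the other sets, whereas Il2ra in cluster 21 differs between TG (661 CPM) and WT (234 CPM).

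Foxp3 was found in most of the cells. A Foxp3 UMI was found in 41 of 48 TG cells (85.4%, 72.2 to 93.9%) and in 58 of 65 WT cells (89.2%, 79.1 to 95.6%). Cluster 6 had 0 of 58 TG cells, which by a limit of 3 cells allows a share with a UMI of up to 5.17%, and 4 of 397 WT cells (1.01%). Cluster 9 had 1 of 132 TG cells (0.758%) and 15 of 272 WT cells (5.51%), and mature B cells, which should lack Foxp3, had 0.562% and 0.402% at median depths of 2927 and 2046 UMIs. With each cell thinned to 1000 UMIs the shares in cluster 21 were 58.3% in TG and 60.2% in WT, so the share with a UMI is set in part by depth. Il2ra, by contrast, had a UMI in 56.2% of TG and 30.8% of WT cells of cluster 21, or 33.8% and 16.7% after thinning, against 1.12% and 1.67% of B cells before thinning. Ikzf2 and Ctla4 had a UMI in most cells of both libraries (95.8% and 79.2% in TG, 75.4% and 67.7% in WT), whereas Tnfrsf18 and Tnfrsf4 had one in 79.2% and 72.9% of TG but 49.2% and 33.8% of WT cells.

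Of the 6 markers Foxp3, Il2ra, Ctla4, Ikzf2, Tnfrsf18 and Tnfrsf4, at least 3 had a UMI in 45 of 48 TG cells (93.8%) and in 50 of 65 WT cells (76.9%). This held for 0 and 0.252% of cells in cluster 6, 2.27% and 4.41% in cluster 9, and 0.187% and 0.602% of mature B cells. None of the 113 cells lacked all 6 markers. All 6 were found together in 15 TG and 4 WT cells.

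**Figure D2:**
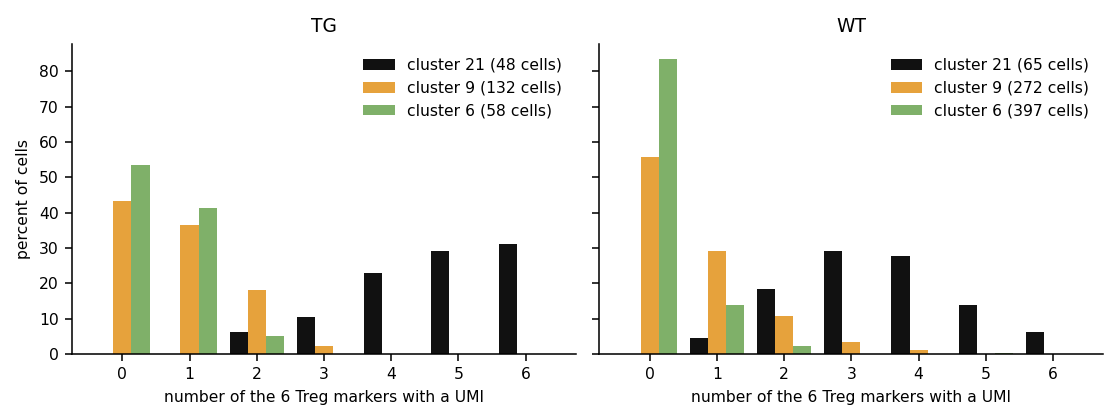
Bars give the percent of cells (vertical axis, from 0) in which 0 to 6 of the 6 Treg markers had a UMI (horizontal axis), in cluster 21, cluster 6 and cluster 9, with TG on the left and WT on the right. At least 3 markers were found in 93.8% of TG and 76.9% of WT cells of cluster 21, and 83.6% of WT cells of cluster 6 had none.

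A single cell of cluster 21 held between 0 and 10 Foxp3 UMIs in TG and between 0 and 9 in WT. In each library 7 cells had no Foxp3 UMI. Their median depths were 3204 (TG) and 3237 UMIs (WT), against 3730 and 2775.5 UMIs in the cells with a Foxp3 UMI. They carried Ikzf2 at 1159 CPM (6 of 7 cells) in TG and at 1614 CPM (7 of 7 cells) in WT. Their Ctla4 was at 253 CPM (102 to 522) for TG and 380 CPM (164 to 748) for WT, and their Il2ra at 109 CPM (22.4 to 317) and 190 CPM (51.7 to 486). The intervals of Ctla4 and Il2ra rest on 3 to 8 UMIs each.

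Cluster 21 held most, but not all, Foxp3 transcripts of the annotated cells. Of 66 annotated TG cells with a Foxp3 UMI 41 lay in cluster 21, as did 58 of 110 WT cells. Among cells with at least 2 Foxp3 UMIs, where stray molecules count for less, cluster 21 held 36 of 44 in TG and 43 of 73 in WT. The next largest group of these was in cluster 7, which the annotation names CD8αβ T cells, with 8 TG and 9 WT cells. Cluster 9 held 7 of the WT cells with at least 2 Foxp3 UMIs and 0 of the TG cells.

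Antibodies against surface proteins were read as oligonucleotide counts in the same cells. They are given as the median over cells of the deposited centred log ratio (CLR, natural log). No antibody was used here to choose the Treg-like cells beyond the authors' cell type name. For CD4 T cells the paper lists CD3 and CD4 as markers, and whether antibodies entered the clustering is not stated. The CD25 antibody was at 0.907 (interquartile range 0.517 to 1.35) in TG and 0.584 (0.363 to 0.821) in WT. In cluster 6 it was at 0.321 and 0.241, and in cluster 9 at 0.340 and 0.311, so that the upper quartiles of those sets (0.378 to 0.525) lay below the medians of cluster 21. Mature B cells were higher, at 1.02 and 0.958, with Il2ra at 4.46 and 8.9 CPM, so the antibody and the transcript ranked the cell types differently. Within the CD4 clusters, both the antibody and Il2ra were highest in cluster 21.

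GITR protein (CD357), the product of Tnfrsf18, set the cells apart more widely. Its median was 2.93 in TG and 1.61 in WT, against 1.1 and 0.740 in cluster 6 and 1.54 and 0.860 in cluster 9. The lower quartile of cluster 21 was above the upper quartile of cluster 9 in TG (2.55 against 2.04), and in WT the quartiles met at 1.17. CD44, which is high on T cells that have met antigen, was at 3.05 and 3.18 in cluster 21, above cluster 6 (2.13 and 1.76) and below cluster 9 (3.64 and 3.46). The Treg-like cells also carried less CD90.2 (3.33 and 3.66 against at least 4.65 in both other clusters) and less TCRβ (2.19 and 1.84 against at least 2.46), and more of the glycoprotein CD200 (1.18 and 1.26 against at most 0.893). The CD4 antibody was at 3.36 and 2.91 and CD8b at 0.468 and 0.417, which follows in part from the authors' naming of T cells by CD4 and CD8β.

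**Figure D3:**
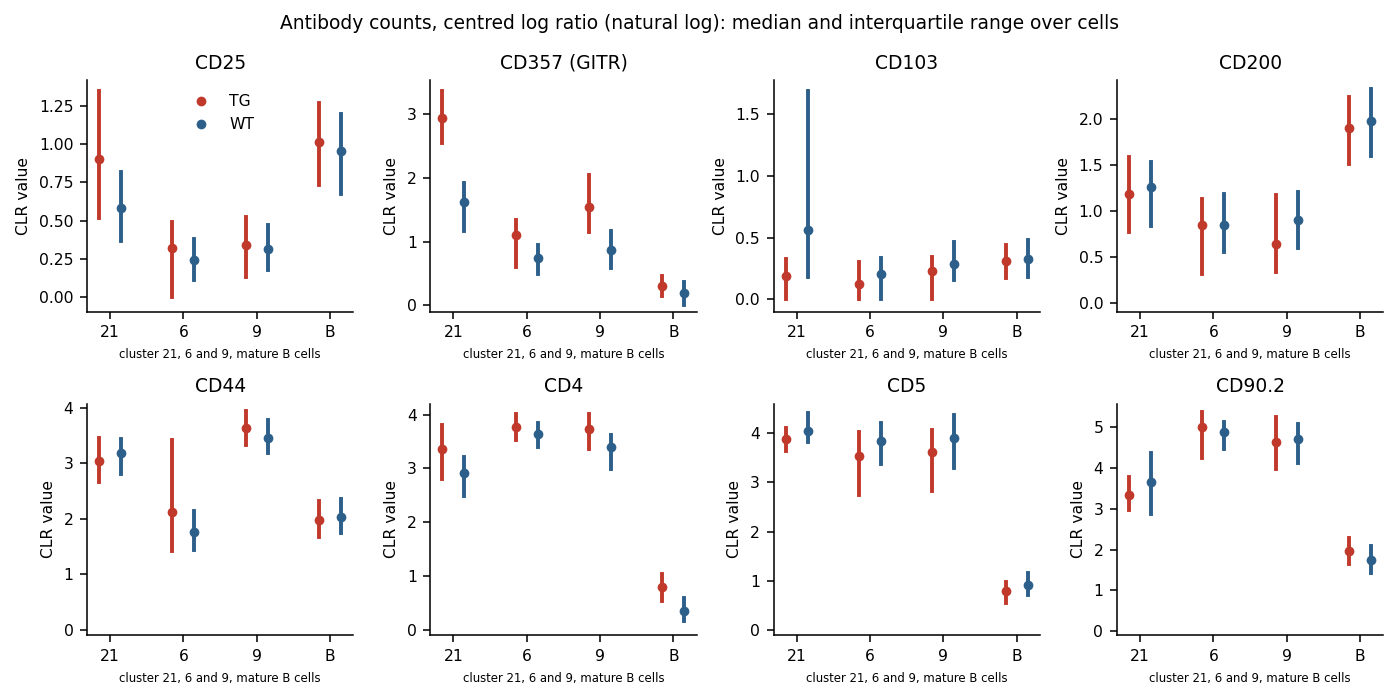
Each panel plots 1 antibody as the CLR value (vertical axis, natural log) in clusters 21, 6 and 9 and in mature B cells, where points are medians over cells and lines the interquartile range, with TG and WT apart. CD25 and GITR (CD357) are higher in cluster 21 than in clusters 6 and 9 in both libraries, and CD90.2 is lower.

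The abundance of the Treg-like cells among all liver immune cells was close in the 2 libraries. They were 1.03% (0.763 to 1.37%) of TG and 0.893% (0.690 to 1.14%) of WT annotated cells, a difference of 0.140 percentage points (-0.211 to 0.525). Of CD4 T cells they were 20.2% in TG and 8.86% in WT, a difference of 11.3 points (6.18 to 17.2). The denominators differ, since cluster 6 was 24.4% of TG and 54.1% of WT CD4 T cells, and cluster 9 was 55.5% and 37.1%. The difference over all annotated cells changed sign, to -0.148 points, when cells with at least 2 UMIs of B cell or myeloid markers were left out, which removed 29 TG and 17 WT cells of cluster 21.

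For the genes below, a gene was compared where it had at least 20 UMIs over both summed sets, and a difference is counted where it was at least 2-fold. A gene can pass this minimum through the set in which it is high, so the counts describe the compared genes of a list and not the whole list. The median log2 ratio of all compared genes was 0.15 (TG) and 0.13 (WT) against cluster 6 and 0.03 and 0.00 against cluster 9. Other scalings moved the median against cluster 6 down by 0.15 to 0.21 in TG and 0.12 to 0.21 in WT, and the ratios of all lists move with it.

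Molecules through which Tregs suppress other cells were compared next. Of the 20 genes on this list 10 could be compared with cluster 6 in each library, and 10 in TG and 9 in WT were at least 2-fold higher, where 13.6% of 3342 and 12.9% of 6449 compared genes were so. Against cluster 9 it was 9 of 14 genes in TG and 8 of 10 in WT, where 7.4% of 5174 and 5.53% of 6061 compared genes were so, and the list medians were 2.14 and 1.57. In none of these 4 comparisons was a gene of the list at least 2-fold lower. Of the 10 genes compared with TG cluster 6, 9 had under 20 UMIs there and 3 of these (Lrrc32, Il10 and Nrp1) had 0, so they passed the minimum of 20 UMIs through cluster 21, which favours higher ratios. Likewise 6 of the 10 genes compared with WT cluster 6 and 7 of the 14 compared with TG cluster 9 had under 20 UMIs in that cluster. In WT cluster 9 it was 1 of 10. In the next lists 6 of 10 TNF receptor genes, 7 of 14 transcription factors and 6 of 10 IL-2 receptor genes compared with TG cluster 6 also had under 20 UMIs there. Tigit, an inhibitory receptor, was at 184 and 147 CPM (TG and WT) against 5.73 and 3 CPM in cluster 6 and 21 and 26.9 CPM in cluster 9. Izumo1r (folate receptor 4) was at 609 and 332 CPM against 212 and 107 CPM in cluster 6 and 60.9 and 117 CPM in cluster 9. Both genes were higher in cluster 21 than in each other set of either library.

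Other suppressive molecules rested on few UMIs or were shared with cluster 9. Nt5e (CD73), which makes adenosine, was at 81.9 and 132 CPM and Entpd1 (CD39), which feeds it, at 56.3 and 29.3 CPM, and the 11 and 6 UMIs of Entpd1 leave its WT difference from cluster 9 within counting error (log2 ratio 1.17, -0.62 to 2.73). Itgb8, part of the integrin that activates TGF-β, had 12 UMIs in TG and 7 in WT and 0 in clusters 6 and 9 of both libraries. Ebi3, a subunit of the cytokine IL-35, had 14 and 9 UMIs in cluster 21, while Il12a, its partner, had 1 UMI in TG and 0 in WT. Nrp1, a receptor linked to Tregs of thymic origin, was at 108 and 234 CPM with 0 UMIs in cluster 6, yet at 77.7 and 75.3 CPM in cluster 9, so that its TG difference from cluster 9 was within counting error (log2 ratio 0.48, -0.38 to 1.28). Tgfb1 itself was at 66.6 and 44 CPM, and its 4 ratios to clusters 6 and 9 were within counting error.

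Receptors of the TNF family and of costimulation were mostly higher in cluster 21. Against cluster 6, 8 of 10 compared genes were at least 2-fold higher and 1 lower in TG and 6 of 9 higher and 2 lower in WT, where 13.6% and 12.9% of all compared genes were higher and 7.15% and 9.99% lower. Against cluster 9 it was 8 of 11 higher and 1 lower in TG and 5 of 9 higher and 2 lower in WT, where 7.4% and 5.53% were higher and 6.49% and 8.2% lower. Tnfrsf1b (TNF receptor 2), which supports Treg growth, was at 359 and 181 CPM against at most 60.9 CPM in the other 2 clusters. Icos, a costimulatory receptor, was at 1014 and 1162 CPM, with log2 ratios of 2.49 and 3.64 against cluster 6 and 1.40 and 1.49 against cluster 9. Cd27 was at 430.2 and 239 CPM against at most 120.3 CPM. Cd40lg, the CD40 ligand of helper T cells, was lower, at 20.5 and 24.4 CPM against 128 and 94.1 CPM in cluster 9. Cd28, the main costimulatory receptor, differed from both clusters by less than its counting error. Cd83 was at 108 CPM in TG, but its 21 UMIs came from 2 cells.

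Transcription factors divided into those shared with cluster 9 and those that were not. Of 18 listed factors, 8 of 14 compared genes (TG) and 9 of 15 (WT) were at least 2-fold higher than in cluster 6 and 2 lower in each library, where 13.6% and 12.9% of all compared genes were higher and 7.15% and 9.99% lower. Against cluster 9, 6 of 14 and 4 of 15 were higher and 1 and 2 lower, where 7.4% and 5.53% were higher and 6.49% and 8.2% lower. Prdm1 (Blimp-1), a factor of effector Tregs, was at 220.2 and 117 CPM against 11.5 and 11 CPM in cluster 6 and 48.3 and 29.6 CPM in cluster 9. Ikzf4 (Eos), a partner of Foxp3, was at 46.1 and 63.5 CPM and had 0 UMIs in both TG clusters. Maf, a factor of several effector T cells, was at 1455 and 1123 CPM against 160.4 and 45 CPM in cluster 6 and 597 and 605 CPM in cluster 9. Gata3 was at 471 and 425 CPM, above cluster 6 (132 and 146 CPM) but not above cluster 9 in TG (521 CPM). Factors linked to resting T cells differed among themselves. Satb1 was at 118 and 92.8 CPM against 762 and 837 CPM in cluster 6 and 246 and 268 CPM in cluster 9, and Bach2 at 30.7 and 14.7 CPM against 189 and 192 CPM in cluster 6 and 18.9 and 63.2 CPM in cluster 9. Foxo1 was at 184 and 352 CPM, against 223 and 381 CPM in cluster 6 and 141 and 194 CPM in cluster 9.

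The IL-2 receptor list had median log2 ratios of 0.52 (TG) and 0.55 (WT) against cluster 6 and 0.50 and 0.092 against cluster 9. Against cluster 6, 4 of 10 compared genes were at least 2-fold higher and 1 lower in TG, and 5 of 12 higher and 2 lower in WT, where 13.6% (TG) and 12.9% (WT) of all compared genes were higher and 7.15% and 9.99% lower. Against cluster 9, 4 of 12 were higher and 0 lower in TG, and 1 of 12 higher and 2 lower in WT, where 7.4% and 5.53% of all compared genes were higher and 6.49% and 8.2% lower, so the higher count in WT is near the share of all genes. Il2rb, the beta chain shared with IL-15, was at 1818 (TG) and 625 CPM (WT), against 338 and 53 CPM in cluster 6 and 849 and 804 CPM in cluster 9. Relative to cluster 9 it was therefore higher in TG (log2 ratio 1.1, 0.89 to 1.31) and lower in WT (-0.36, -0.65 to -0.09). Il2rg, the common gamma chain, was at 871 and 1035 CPM, within 2-fold of both clusters apart from WT cluster 6 (log2 ratio 1.04). Socs2 and Cish, feedback inhibitors that IL-2 signalling turns on through STAT5, were at 302 and 236 CPM in TG and 137 and 103 CPM in WT. Their values in cluster 9 were 151 and 128 CPM in TG and 69.9 and 99.5 CPM in WT. Il7r, whose loss from the surface is a mark of Tregs, was at 686 and 464 CPM against 1472 and 1487 CPM in cluster 6 and 815 and 1133 CPM in cluster 9. Il2 had 0 UMIs in TG and 2 in WT, too few to separate the clusters (11.5 and 2 CPM in cluster 6, 18.9 and 12.1 CPM in cluster 9).

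Among genes of naive and memory T cells, Tcf7 and Lef1 were lower and S100a4 and S100a6 higher than in cluster 6. On this list 8 of 12 compared genes were at least 2-fold higher and 3 lower in TG, and 8 of 14 higher and 6 lower in WT, where 13.6% and 12.9% of all compared genes were higher and 7.15% and 9.99% lower. Against cluster 9, 0 of 12 were higher and 2 lower in TG, and 3 of 14 higher and 3 lower in WT, where 7.4% and 5.53% of all compared genes were higher and 6.49% and 8.2% lower. Tcf7, which keeps T cells in a resting state, was at 97.3 and 87.9 CPM against 1037 and 1167 CPM in cluster 6 and, still, 574 and 660.1 CPM in cluster 9. Lef1 was at 102 and 151 CPM against 556 and 793 CPM in cluster 6. Igfbp4 had 0 UMIs in TG, at least 26.1-fold lower than in cluster 6 against the floor of 3 UMIs, and in WT its 5 UMIs came from 1 cell. S100a4 and S100a6, calcium-binding proteins of effector and memory T cells, were at 697 and 1910.4 CPM in TG and 752 and 1753 CPM in WT, against 11.5 and 172 CPM and 8 and 46 CPM in cluster 6. Tcf7 also separated the Treg-like cells from cluster 9, with log2 ratios of -2.52 (-3.31 to -1.89) and -2.87 (-3.68 to -2.23).

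Part of the compared helper T cell effector genes were lower in cluster 21 than in cluster 9. Of the compared genes of this list 5 of 9 in TG and 5 of 10 in WT were at least 2-fold lower than in cluster 9, where 6.49% and 8.2% of all compared genes were lower, and 0 and 1 were higher, where 7.4% and 5.53% of all compared genes were. Genes low in cluster 21 could pass the minimum of 20 UMIs through cluster 9, which favours lower ratios. How many did so was not counted. Against cluster 6, 2 of 5 were higher and 1 lower in TG, and 4 of 6 higher and 0 lower in WT, where 13.6% and 12.9% of all compared genes were higher and 7.15% and 9.99% lower. Ifng was at 46.1 (TG) and 19.5 CPM (WT), against 237 and 169 CPM in cluster 9, with log2 ratios of -2.29 (-3.53 to -1.39) and -2.95 (-5.01 to -1.72). Its factor Tbx21 (T-bet) was at 41 and 39.1 CPM against 130.3 and 72.6 CPM, which was within counting error in WT (log2 ratio -0.82, -2.18 to 0.19). Il17a and Il4 had 0 UMIs in cluster 21 of both libraries. In cluster 9 Il17a was at 2.1 and 36.3 CPM and Il4 at 23.1 and 14.8 CPM. The floor in cluster 21 was 15.4 (TG) and 14.7 CPM (WT). Il17a in TG lay under it and Il4 in WT at it, so these 2 zeros show no difference from cluster 9. Ccl5, a chemokine of effector T cells, was at 2699 and 1094 CPM against 3763 and 2769 CPM in cluster 9, but 47.4% (TG) and 61.2% (WT) of its UMIs came from 3 cells.

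Homing receptors were shared with cluster 9 in part. Against cluster 6, 5 of 17 compared genes of this list were at least 2-fold higher and 6 lower in TG, and 9 of 19 higher and 2 lower in WT, where 13.6% (TG) and 12.9% (WT) of all compared genes were higher and 7.15% and 9.99% lower. Against cluster 9, 2 of 18 were higher and 4 lower in TG, and 4 of 21 higher and 2 lower in WT, where 7.4% and 5.53% of all compared genes were higher and 6.49% and 8.2% lower. Klrg1 (chromosome 6, 122270596 to 122282882), an inhibitory receptor of short-lived effector cells and of effector Tregs, was at 691 and 371 CPM against 5.73 and 0 CPM in cluster 6 and 124 and 26.9 CPM in cluster 9, and it had a UMI in 27 of 48 TG and 21 of 65 WT cells. Ccr2 (374 and 464 CPM) and Cxcr3 (297 and 205 CPM), receptors for entry into inflamed tissue, were far above cluster 6 (at most 11.5 and 51.6 CPM) and within 2-fold of cluster 9 (275 and 285, and 265 and 191 CPM). Cxcr6, a receptor that holds T cells in the liver, was lower than in cluster 9, at 46.1 and 39.1 CPM against 338 and 237 CPM. Ccr7, which guides T cells to lymph nodes, had 4 and 9 UMIs.

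Lists of interferon-stimulated, cell cycle, survival, early activation and T cell genes were counted in the same way, beside the all-gene shares of 13.6% (TG) and 12.9% (WT) higher and 7.15% and 9.99% lower for cluster 6, and 7.4% and 5.53% higher and 6.49% and 8.2% lower for cluster 9. Among interferon-stimulated genes 1 of 11 (TG) and 6 of 15 (WT) compared genes were at least 2-fold higher than in cluster 6, and 0 of 13 and 3 of 14 higher than in cluster 9, while 1 gene was lower, in WT against cluster 9. Ifi27l2a was at 1004 and 1841 CPM against 395 and 249 CPM in cluster 6 and 769 and 503 CPM in cluster 9. Cell cycle genes gave 1 of 5 and 3 of 7 higher than in cluster 6 and 1 of 8 and 2 of 7 higher than in cluster 9, with 0 lower, and Mki67, a marker of dividing cells, was at 87.1 and 92.8 CPM. Genes of survival and apoptosis gave 2 of 6 and 1 of 6 higher and 1 and 1 lower against cluster 6, and 2 of 7 and 1 of 10 higher and 1 and 3 lower against cluster 9. Bcl2, which protects resting T cells, was at 41 and 73.3 CPM against 332 and 254 CPM in cluster 6. Early activation genes gave 0 of 16 and 0 of 17 higher and 2 of 16 and 2 of 17 lower than in cluster 6, and 1 of 16 and 0 of 17 higher and 1 and 1 lower than in cluster 9. The T cell marker list, which includes the CD3 chains, gave 2 of 10 and 1 of 10 higher than in cluster 6 and 0 of 10 in both libraries against cluster 9, with 0 lower.

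**Figure D4:**
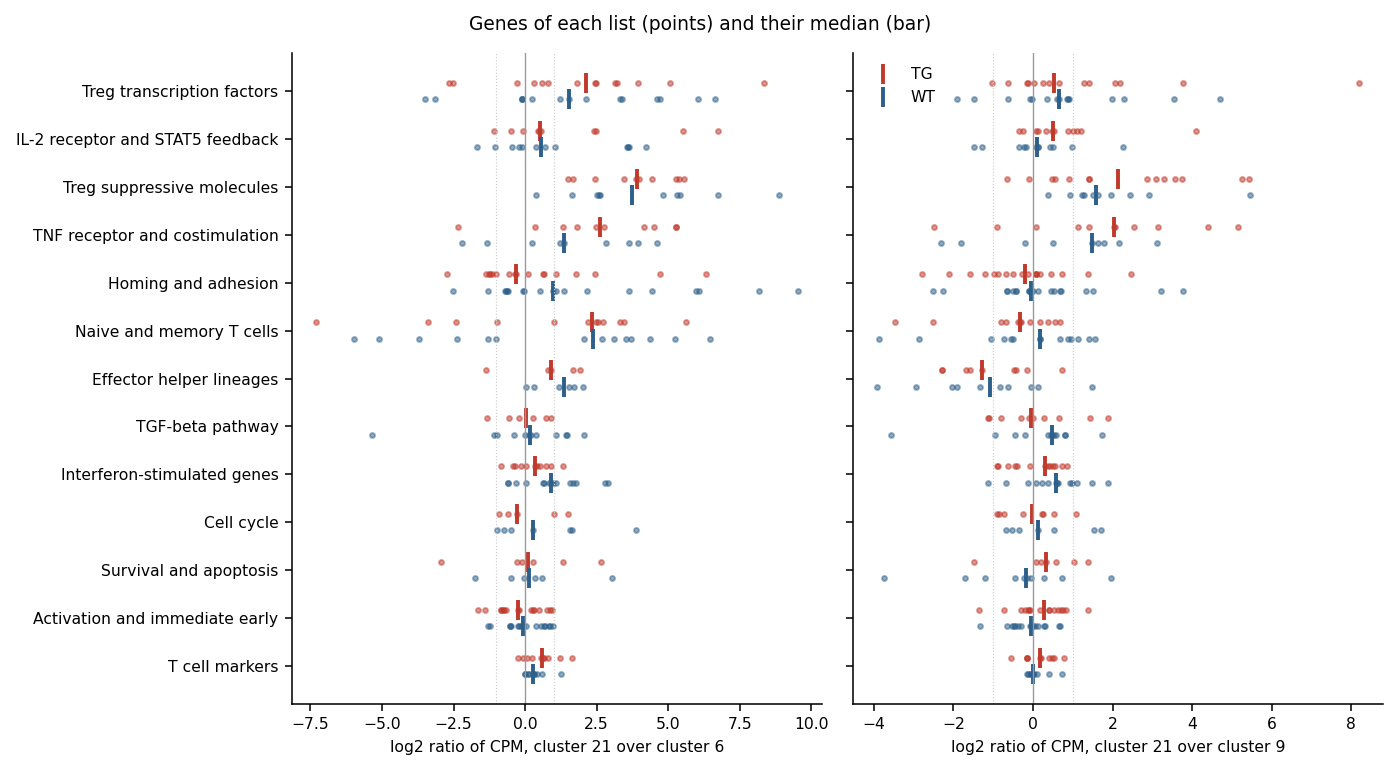
Each point is the log2 ratio of CPM of 1 compared gene of a list, cluster 21 over cluster 6 on the left and over cluster 9 on the right, and the vertical bar is the median of the list, with TG and WT apart. The list of Treg suppressive molecules has medians of 3.93 (TG) and 3.73 (WT) against cluster 6 (2.87 and 3.75 with genes at 0 UMIs in cluster 6 set to their bound) and 2.14 and 1.57 against cluster 9, and helper effector genes have negative medians against cluster 9 (-1.29 and -1.08).

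Over all genes, those that differed by at least 2-fold in the same direction in both libraries were 6.83% (higher) and 2.3% (lower) of 3309 genes against cluster 6 and 1.86% and 1.4% of 4990 genes against cluster 9. The 2 libraries make up different shares of each cluster, so a ranking on UMIs summed over both depends in part on that mix for genes that differ between TG and WT, such as Lrrc32, Frmd5 and Ccr4. In that ranking the genes highest over cluster 6 were Klrg1, Nrp1, the chemokine receptors Ccr3 and Ccr4, the cytokine receptor chain Il12rb1, Lrrc32, C1qtnf6, Frmd5, Foxp3 and Zdhhc2. Over cluster 9 they were Frmd5, Lrrc32, Epcam, Foxp3, Tnfrsf9, Neb, Snx9, Ebi3, Ccr3 and Ikzf4. Ccr3, a receptor for eotaxins, was at 149 (TG) and 112 CPM (WT), each from 11 cells, and at 0 UMIs in cluster 6 and 18.9 and 1.34 CPM in cluster 9. Frmd5 had 0 UMIs in clusters 6 and 9 of both libraries, and 18 UMIs (TG) and 2 UMIs (WT) in cluster 21. At the low end Dapl1, a gene of resting T cells, and Tgfbr3, a coreceptor for TGF-β, had 0 UMIs in cluster 21, and in WT were at least 10.4-fold and 6.76-fold lower than in cluster 6. Tmem176b, a membrane protein, was also at 0 UMIs in cluster 21, against 8.41 and 95.4 CPM in cluster 9.

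Within cluster 21 the TG and WT cells were compared next. At least 2-fold higher in TG were 218 genes and at least 2-fold lower 168 genes, which is 5.95% and 4.58% of 3666 compared genes. Of TNF receptor and costimulation genes 4 of 9 compared were higher in TG and 0 lower, but 1 of the 4 was Cd83 (1.79, 0.52 to 3.47), whose ratio reversed to -3.49 without its 3 leading TG cells. The IL-2 receptor list gave 4 of 10 higher and 0 lower. Lists of other cell types held genes higher in TG too: the 2 compared NK and NKT genes, Gzma (3.72, 2.64 to 5.31) and Fcer1g (3.81, 2.15 to 7.22), and 2 of 4 myeloid genes, S100a8 (1.22, 0.18 to 2.42) and S100a9 (2.12, 1.11 to 3.42). Suppressive molecules gave 3 of 14 higher and 1 lower. The Treg transcription factors gave 2 of 15 in each direction, and naive and memory genes 0 of 11 in either.

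Tnfrsf9, Il2ra, Tnfrsf4 and Tnfrsf18 were higher in the TG cells, whereas Icos (log2 ratio -0.20, -0.48 to 0.08), Ctla4 (-0.21, -0.66 to 0.23) and Irf4 (-1.19, -2.91 to 0.19) differed by less than their counting error. Tnfrsf9 (4-1BB; chromosome 4, 150914562 to 150946102), a TNF family receptor of stimulated T cells, was at 333 CPM (257 to 424) in TG, from 19 cells, and at 39.1 CPM (16.9 to 77) in WT, from 5 cells, a log2 ratio of 3.01 (2.03 to 4.36). In TG 3 cells held 44.6% of its UMIs, and without them the ratio was 2.33. The antibody to its protein, CD137, had medians of 0.739 (TG) and 0.695 CLR units (WT), a difference of 0.0443. Il2ra had a log2 ratio of 1.49 (1.01 to 2.00), which was 0.89 without the 3 TG cells with most of its UMIs, and the CD25 antibody was higher by 0.323 CLR units. Tnfrsf4 (1.60, 1.08 to 2.18) and Tnfrsf18 (1.06, 0.62 to 1.53) were also higher in TG, and the GITR antibody was higher by 1.31 CLR units. TG cells of clusters 6 and 9 showed part of this too. GITR antibody medians there exceeded those of WT (1.1 against 0.740, and 1.54 against 0.860), and Tnfrsf4 in cluster 9 had a TG over WT log2 ratio of 1.58 (0.68 to 2.57), whereas Il2ra in cluster 9 had one of -0.34 (-1.26 to 0.50).

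Lrrc32 (GARP; chromosome 7, 98489283 to 98502181), which holds latent TGF-β on activated Tregs, had 26 UMIs from 14 TG cells and 2 UMIs from 2 WT cells, a log2 ratio of 3.47 (1.77 to 6.89). The filtered count table holds it at 0 in all WT cells. Il10 (chromosome 1, 131019845 to 131024974), the suppressive cytokine, had 23 UMIs from 10 TG cells and 2 UMIs from 1 WT cell (3.30, 1.58 to 6.72), with 56.5% of the TG UMIs in 3 cells. Outside cluster 21 both genes had at most 1 UMI in clusters 6 and 9 of either library. Gzmb (granzyme B; chromosome 14, 56258838 to 56262260) was at 1117 CPM in 28 TG cells and 200.2 CPM in 17 WT cells, a log2 ratio of 2.47 (1.99 to 3.00). Since 48.2% of its TG UMIs came from 3 cells, the ratio without them was 1.64. In cluster 9 Gzmb was at 92.5 and 83.3 CPM and in B cells at 103 and 88.7 CPM. In cluster 6 it had a UMI in 11 of 58 TG (19.0%) and 21 of 397 WT cells (5.29%). With each cell thinned to 1000 UMIs these shares were 7.19% and 2.43%, so cluster 6 was also higher in TG. The other genes ranked highest in TG were the lysosomal and cytotoxic cell protease inhibitor Cst7, Nadk, Frmd5, Cln3, the adhesion molecule Epcam, Tgfbr2 and the protease Casp1. Of these, Casp1 was higher in TG also in cluster 9 (0.84, 0.26 to 1.43) and in B cells (1.26, 0.95 to 1.59), and Cln3 in clusters 6 (1.59, 0.56 to 2.51) and 9 (0.89, 0.27 to 1.52).

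Genes lower in the TG cells were led by Itgae (chromosome 11, 73090583 to 73147446), which encodes the alpha chain of the CD103 integrin and is known to be induced by TGF-β. It had 3 UMIs from 2 TG cells and 34 UMIs from 20 WT cells, a TG over WT log2 ratio of -3.23 (-5.78 to -1.77). The CD103 antibody had a median of 0.190 in TG and 0.566 in WT, with upper quartiles of 0.326 and 1.69, so the upper quartile of WT lay far above that of TG. In clusters 6 and 9 its medians lay between 0.123 and 0.283. Ccr4, a chemokine receptor of skin-homing and regulatory T cells, had 3 UMIs in TG and 29 in WT (-3.01, -5.56 to -1.51), but 52.5 and 56.5 CPM in cluster 9. Ccr6 had 0 and 16 UMIs, under the minimum of 20 for a comparison, and in cluster 9 it likewise had 0 UMIs in TG and 64 in WT. Smad3, which carries the TGF-β signal to the nucleus, had 5 and 23 UMIs (-2.03, -3.88 to -0.71). Rora, a factor of tissue Tregs and type 17 cells, was at 184 and 508 CPM (-1.45, -2.05 to -0.90), and it was lower in TG also in cluster 9 (-0.83, -1.21 to -0.48) and in mature B cells (-1.36, -2.07 to -0.73). S1pr1, which lets T cells leave tissue, was at 143 and 313 CPM (-1.11, -1.82 to -0.46), with ratios of -0.16 in cluster 6, 0.40 in cluster 9 and -0.19 in B cells. The remaining genes ranked lowest in TG were Psmd6, Calcoco1, Thoc7, Slc43a2, L3mbtl3, Cldnd1 and Sertad2, with 3 to 21 UMIs in TG and 18 to 92 in WT.

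**Figure D5:**
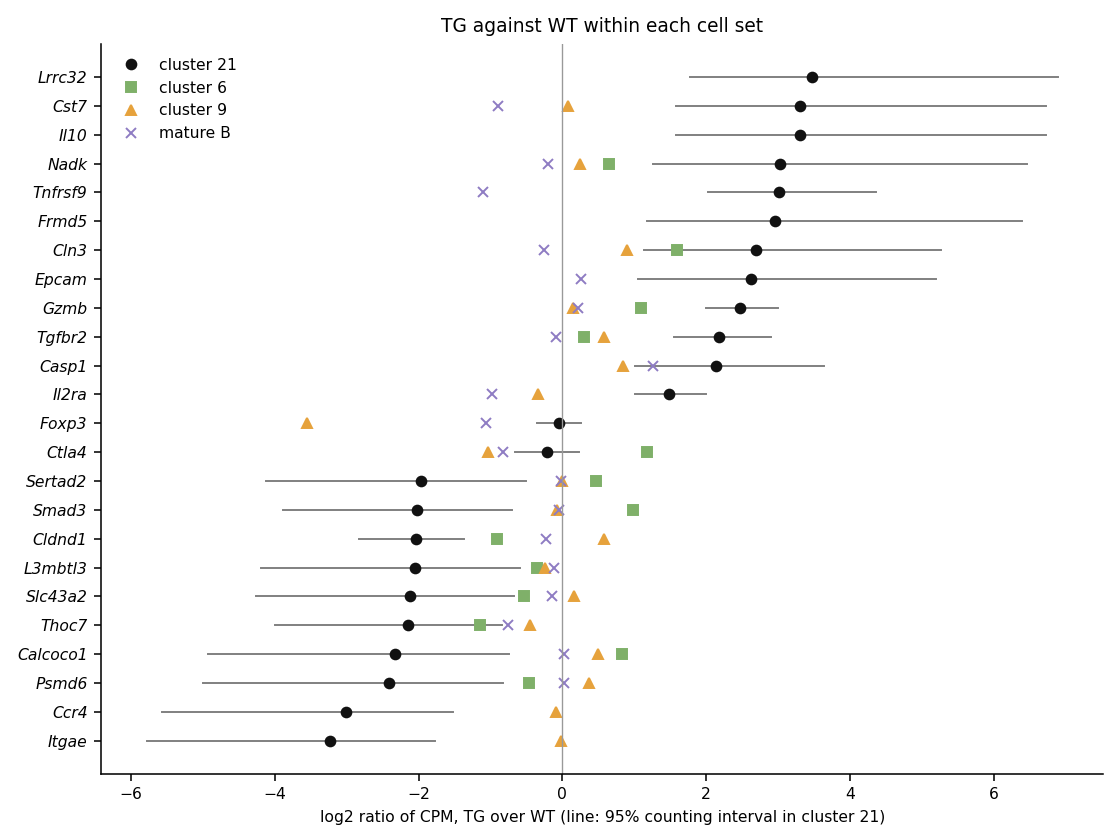
Points give the log2 ratio of CPM, TG over WT, for the genes ranked highest and lowest in cluster 21 and for Foxp3, Il2ra, Ctla4 and Il10, with the 95% counting interval of cluster 21 as a line and the ratio in clusters 6 and 9 and in B cells, where a gene had at least 20 UMIs, as other symbols. Tgfbr2 (2.17) and Tnfrsf9 (3.01) lie to the right and Itgae (-3.23) to the left in cluster 21, while Foxp3 lies at -0.05.

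Tgfbr2 (chromosome 9, 116084293 to 116175360), the mouse gene of the receptor whose human counterpart is the transgene, was at 538 CPM (439.8 to 651) in 39 TG cells and 117 CPM (75.1 to 174) in 17 WT cells, a log2 ratio of 2.17 (1.55 to 2.90). The same ratio was 0.30 (-0.19 to 0.73) in cluster 6, 0.58 (0.26 to 0.89) in cluster 9 and -0.09 (-0.23 to 0.06) in mature B cells. WT cells of cluster 21 were thus the lowest for this gene among the CD4 sets (235 and 231 CPM in WT clusters 6 and 9), and TG cells of cluster 21 the highest. Whether reads of the human transgene can count under Tgfbr2 is not stated in the sources used here. Of the 12 genes of the TGF-β pathway, 9 could be compared between TG and WT, of which Tgfbr2 was at least 2-fold higher and Smad3 and Smad7 at least 2-fold lower, where 5.95% and 4.58% of all compared genes were higher and lower. Smad7 lay just past the 2-fold threshold. Smad7, the inhibitor that TGF-β induces to limit its own signal, was at 71.7 and 147 CPM (-1.0, -2.06 to -0.07). It was lower in TG also in cluster 6 (-0.75, -1.34 to -0.24) and in mature B cells (-0.56, -0.72 to -0.40), with a ratio of -0.55 (-1.18 to 0.02) in cluster 9. The list median was -0.42, with Ski (-0.74), Tgif1 (-0.81) and Smad4 (-0.42) within counting error or near its edge.

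Markers of other cell types were found in cluster 21 as well, and their part in the gene ratios was not tested. For the share of cells, cells with at least 2 UMIs of B cell or myeloid markers were left out, as given above. The 10 B and plasma cell genes summed to 1352 (TG) and 1167 CPM (WT), against 493 and 353 CPM in cluster 6, 351 and 282 CPM in cluster 9 and 15451.5 and 14159 CPM in mature B cells. Most of this was Ighm, at 1152 CPM in 37 TG cells and 928 CPM in 48 WT cells. Cd79a, a defining B cell gene, was at 81.9 and 97.7 CPM against 4498 and 3911 CPM in B cells, and in WT 3 cells held 95% of its UMIs and 87.5% of those of the MHC class II gene H2-Ab1. The 12 NK and NKT genes summed to 871 (TG) and 97.7 CPM (WT), against 298 and 156 CPM in cluster 6 and 672 and 378 CPM in cluster 9, with Zbtb16 at 0 in cluster 21 of both libraries. The TG sum was led by Gzma (415 against 29.3 CPM) and Fcer1g (169 against 9.77 CPM), of which 3 cells held 77.8% and 75.8%, and Gzma was also higher in TG in cluster 9 (431 against 28.2 CPM) and in B cells (423 against 189 CPM). Myeloid genes summed to 994 and 860 CPM against 946 and 629 CPM in cluster 9, with Adgre1, C1qa, C1qb, Clec4f and Cd14 at 0 in both libraries, dendritic cell genes to 845 and 894 CPM with Flt3 at 0, and Cd8a and Cd8b1 to 71.7 and 63.5 CPM. Gamma delta T cell genes summed to 92.2 and 14.7 CPM, and erythroid, platelet and hepatocyte genes had 0 UMIs in TG and 4 in WT.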

How the data were processed

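RNA and surface antibodies of single CD45+ liver cells were read on BD Rhapsody. The authors aligned reads to mm10 with STAR in the BD Rhapsody pipeline (version 1.9 in the file headers) and deposited error-corrected UMI counts of genes and of 49 antibodies, the mitochondrial percent of each cell, antibody values as natural log centred ratios, and a cell type name and cluster number made in Seurat after joining the libraries by canonical correlation. The filter on cells is not given in the sources used here. UMI counts of annotated cells were taken from the deposited library files (24131 genes) and summed per cell set and library. CPM have exact Poisson intervals, log2 ratios (0.5 UMIs added to each sum) exact conditional binomial intervals, shares Clopper-Pearson and their differences Newcombe intervals, all at 95%. A gene was compared with at least 20 UMIs over both sums. No test was possible with 1 library per genotype.

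Named genes are the 269 members of 20 lists and, per comparison, the 10 highest and 10 lowest ratios among compared genes with UMIs in at least 5 cells of the higher set, under 50% of its UMIs in 3 cells and, between clusters, the same direction in both libraries, without receptor segments, immunoglobulin and sex genes. The members and lists were chosen with earlier results of these data known. Positions are from GENCODE M21 (GRCm38). The ratio code was checked on simulated counts. Doublets (Scrublet in scanpy 1.11.5, expected rate 5%) were 0.818% of TG and 3.25% of WT cells and were kept. TMM factors came from edgeR 4.0.16 (R 4.3.3), and other calculations used Python 3.11.15, numpy 2.4.6, scipy 1.17.1 and pandas 2.3.3. Alternatives were TMM scaling, totals without ribosomal protein and mitochondrial genes, no minimum count, the filtered count table, removal of doublets, equal weight for each cell, thinning to 1000 UMIs and other denominators. Cells without a genotype name in the metadata entered only the count of Foxp3 cells and the Il2ra level of those cells. Some genes and antibodies are not reported here.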

Additional observations from a re-analysis of the deposited data

Results flagged for a closer look

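Opposite directions in TG and WT were looked for among the named genes, which include those ranked by their TG over WT ratio in cluster 21, and that choice favours opposite directions. Of 142 named genes compared with cluster 6 in both libraries, 3 differed from it in opposite directions in TG and WT with both counting intervals clear of 0, and 2 of 136 without the genes ranked between TG and WT, beside 0.272% of all 3309 compared genes. The log2 ratios of cluster 21 over cluster 6 in TG and WT were -1.37 and 1.06 for Ly6c2, 0.90 and -0.98 for Tgfbr2, and -0.72 and 0.84 for Fosb. The UMIs of Ly6c2 in cluster 21 came mostly from 3 cells, which held 80% in TG and 81.2% in WT. The difference between the libraries was not tested for any of these genes.

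Against cluster 9 it was 12 of 172 named genes, again without a test of the difference, and 8 of 157 (5.1%) without the genes ranked between TG and WT, beside 0.661% of all 4990 compared genes. Higher in TG and lower in WT were Il2rb (1.1 and -0.36), Tgfbr2 (0.64 and -0.95), Jund (0.17 and -0.44) and Dusp2 (0.62 and -0.31). Lower in TG and higher in WT were the receptors Il1rl1 (-0.65 and 5.46), S1pr1 (-0.97 and 0.54) and Ccr4 (-1.58 and 1.33), the memory genes Crip1 (-0.37 and 0.96) and Lgals1 (-0.31 and 0.69), and Hmgb2 (-0.86 and 0.52), Calcoco1 (-1.69 and 1.14) and Cldnd1 (-0.98 and 1.63). For Il1rl1, the IL-33 receptor of tissue Tregs, both clusters differed between the libraries. Cluster 9 was at 221 (TG) and 5.38 CPM (WT), while cluster 21 was at 138 CPM from 6 cells in TG and 264 CPM from 25 cells in WT.

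The CD49b antibody, which marks an integrin alpha chain, gave a median difference between clusters 21 and 9 of -0.92 CLR units in TG and 0.40 in WT. Cluster 21 was at 0.979 and 1.51 and cluster 9 at 1.9 and 1.11, and the difference was not tested.

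Cells of the pools that carry no genotype name in the metadata also held Foxp3. In the pool with TG, 64 of 5379 such cells (1.19%, 0.917 to 1.52%) had at least 2 Foxp3 UMIs, beside 44 TG cells (0.947%). In the pool with WT it was 171 of 16829 cells (1.02%, 0.870 to 1.18%), beside 73 WT cells (1.00%). Il2ra in these Foxp3 cells was at 204 CPM (167 to 247) and 78.5 CPM (60.6 to 100.1), against 595 CPM (498 to 706) in TG and 299 CPM (239.8 to 367) in WT cells. Cells without a name can come from the other mice of each pool. In the pool with WT these were p40-/-IL-2Rα-/- mice, in which Il2ra itself is knocked out. The levels therefore do not compare like cells, and the genotype of the unnamed cells was not tested.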

How the results depend on the processing

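Under the alternatives 685 summary values stayed close to those reported and 32 moved. Of values of single named genes 5966 stayed close, 123 moved and 17 reversed. A gene ratio or share counted as close when it stayed within its counting interval, which is wide for genes with few UMIs. Removing doublets could change gene ratios only against WT cluster 9, since the other CD4 sets hold 0, yet these ratios are counted too. The totals therefore do not measure how stable the results are. The difference in share, 0.140 points, was 11.3 points over CD4 T cells and 0.694 points over all T cells. Thinning lowered the share with a Foxp3 UMI to 58.3% in TG and 60.2% in WT by construction. Without a minimum count, higher and lower genes were 2944 and 2049 against cluster 6 in TG, 2715 and 1288 in WT, 2243 and 1597 against cluster 9 in TG, 1924 and 1299 in WT, and 2379 and 1846 for TG over WT, since low counts pass 2-fold easily. The same setting moved list medians to 1.00 for naive and memory, -0.052 for interferon and 1.42 for cell cycle genes (cluster 6, TG), 2.84 for TNF receptors, 1.36 for homing and 1.60 for cell cycle genes (cluster 6, WT), 1.78 for TNF receptors, -1.31 for helper effector and -0.88 for NK genes (cluster 9, WT), and 0.069 for helper effector and 1.83 for NK genes (TG over WT). Totals without ribosomal protein and mitochondrial genes gave 361 lower genes against cluster 6 in TG in place of 239. Equal weight for each cell gave Foxp3 a log2 ratio of 4.06 against cluster 9 in WT. As shares of summed antibody counts, CD25 had log2 ratios of 2.59 (TG) and 1.93 (WT) against cluster 6, 2.56 and 1.51 against cluster 9 and 1.12 for TG over WT, which is another scale.

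Without the 3 cells of the higher set with most UMIs of a gene, the log2 ratio reversed against cluster 6 in TG for Il1rl1 (-0.092), Cd83 (-0.017), Gzma (-0.19) and Fcer1g (-0.41), and in WT for Ly6c2 (-1.08), Cd79a (-1.28), H2-Ab1 (-0.97) and H2-Aa (-3.61). Against cluster 9 it reversed in TG for Cd83 (-0.89), Top2a (-0.18) and Fcer1g (-0.37), and in WT for Igfbp4 (0.078, and 0.32 without doublets), Cd79a (-1.97) and H2-Ab1 (-0.48). Between TG and WT it reversed for Cd83 (-3.49) and Top2a (-0.15). The 20 genes ranked highest or lowest between TG and WT stayed at least 2-fold apart in the same direction with equal weight for each cell, with cells holding a Foxp3 UMI alone and without the 3 leading cells, the smallest log2 size being 1.36. Removing doublets could not change them, since cluster 21 has 0, and both scalings shift every gene by the same amount. Removal of the 3 leading cells was a weak check. A gene was ranked only if 3 cells held under 50% of the higher set's UMIs. The ranked ratio nearest to 2-fold was -1.97 (Sertad2), so a fall below 2-fold was nearly excluded by the ranking. The filtered table moved Lrrc32 from 3.47 to 5.80, because it holds this gene at 0 in all WT cells where the library file has 2 UMIs in cluster 21, so 5.80 depends on the 0.5 UMIs added to each sum. It did so for 1 of the 20 genes, and for 359 (WT) and 611 (TG) of the 13528 genes in both tables. The cause of the other changes was not tested. Leaving out these cells, equal weight for single genes, use of cells with a Foxp3 UMI alone, the addition of cluster 7 cells and the CD25 share between TG and WT were chosen after seeing the data.

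No paired analysis was possible because each genotype has 1 library, and for the same reason no leave-one-out was run. Depth limits genes near the floor: the floor of 3 UMIs in cluster 21 is 15.4 (TG) and 14.7 CPM (WT).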

Other observations

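The Treg-like cells were not uniform for Klrg1, and a split by it, chosen after its values were seen, set 27 against 21 cells in TG and 21 against 44 in WT. Cells with and without a Klrg1 UMI had median depths of 3869 and 3458 UMIs in TG and 2779 and 2805.5 in WT. Cells with a Klrg1 UMI had more Ikzf2 in TG (log2 ratio 0.74, 0.34 to 1.17) and WT (0.91, 0.46 to 1.36). They also had more Icos in TG (0.92, 0.46 to 1.41) and WT (1.12, 0.74 to 1.5). Tnfrsf9 was higher in Klrg1 cells of TG (1.36, 0.50 to 2.40), but 3 TG cells of cluster 21 held 44.6% of its UMIs. In WT Tnfrsf9 had 6 against 2 UMIs, under the minimum of 20 for a comparison. Foxp3 did not separate cells with and without a Klrg1 UMI beyond counting error (0.28, -0.16 to 0.76, in TG and -0.17, -0.64 to 0.28, in WT). Il1rl1 was lower in Klrg1 cells of TG (-2.33, -4.01 to -1.05) and higher in those of WT (1.42, 0.60 to 2.27). The TG value rests on 6 against 21 UMIs from few cells. Without 3 leading cells the TG ratio of Il1rl1 over cluster 6 fell from 2.45 to -0.09, so its direction in the split may rest on single cells. In WT the eotaxin receptor Ccr3 had 22 UMIs in Klrg1 cells and 1 in the others. In TG it had 20 and 9 UMIs, a difference within counting error (0.51, -0.65 to 1.87). Gzmb was higher in Klrg1 cells of TG (1.45, 0.97 to 1.99), but 3 TG cells of cluster 21 held 48.2% of its UMIs. In WT the difference was within counting error (0.51, -0.49 to 1.46).

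Cluster 7, which the annotation names CD8αβ, held 8 TG and 9 WT cells with at least 2 Foxp3 UMIs. Their CD4 antibody had a median of 3.41 and 3.40, against 1.58 (TG) and 1.44 (WT) in the cells of cluster 7 without a Foxp3 UMI, and Cd8a had 0 and 1 UMIs against 812 UMIs (346 CPM) in the 310 TG cells without Foxp3. The CD8b antibody had low medians in both groups, 0.420 and 0.445 in the Foxp3 cells and 0.575 and 0.638 in the others. A median does not show a smaller part of the cells. Cd8b1 was at 419 (TG) and 452 CPM (WT) in the cells without Foxp3, from 110 of 310 and 41 of 122 cells. It had 3 and 1 UMIs in the Foxp3 cells. Mki67 was at 713 (TG) and 1187 CPM (WT) in the Foxp3 cells, against 87.1 and 92.8 CPM in cluster 21. The GITR antibody (CD357) was at 3.00 and 1.59, near the medians of cluster 21 (2.93 and 1.61), and the CD25 antibody at 0.965 and 0.337, against 0.907 and 0.584 in cluster 21. Their Foxp3 level is raised by the choice of cells with at least 2 Foxp3 UMIs and is not compared. As CPM, other Treg markers were lower than in cluster 21 in part. Ikzf2 was at 698 CPM (511 to 931) and 385 CPM (249 to 569) against 1255 and 825 CPM. Il2ra was at 182 CPM (94.1 to 318) and 154 CPM (73.9 to 283) against 661 and 234 CPM. Ctla4 was at 455 CPM (307 to 650.0) and 170 CPM (84.6 to 303) against 405 and 469 CPM. The Foxp3 cells of cluster 7 were deeper, with medians of 8060 (TG) and 6594 UMIs (WT) against 3677.5 and 2784 in cluster 21. A lower CPM is a lower share of the UMIs and need not mean fewer UMIs per cell. Ikzf2 had 46 UMIs in 8 TG and 25 in 9 WT cells, against 245 in 48 and 169 in 65 cells of cluster 21.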
